A study of Mus musculus with 6 samples.

Results

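Scavenger receptors are cell surface and endosomal proteins that bind modified lipoproteins, dying cells, haemoglobin complexes and microbial surfaces and carry them into the cell. They belong to several unrelated protein families that share this use rather than a common fold, and most of them are made by macrophages. In the retina the resident macrophages are the microglia, which take up debris when photoreceptors die, while pigment epithelium and vessel cells also make members of the group. The 9 genes described here are Msr1, Cd68, Cd36, Cd163, Marco, Mrc1, Stab1, Olr1 and Scarb1. They were chosen by symbol, and all 9 were found among the 23420 genes of the deposited table.

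Retinal mRNA of albino mice was sequenced in 6 libraries, with 2 replicates, called biological in the methods, in each of 3 groups. The control group had no treatment, the light group received 1 h of light and was analysed 4 days later, and the light plus minocycline group received the same light and intraperitoneal minocycline, a tetracycline antibiotic, at 45 mg/kg. The sample labels give the strain CD1, 10000 lux and 4 days of daily injections, whereas the methods describe BALB/cJ mice of both sexes aged 10 to 14 weeks, 15000 lux and injections that began on the day before the light and were given more often at first, so strain, light dose and schedule are known only within these limits. Vehicle injections are not named in the labels of the groups without minocycline, and it is not stated whether animals were pooled.

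Libraries held 15205930 to 22856922 counts. A count of 0 allows up to 3 counts, which is 0.131 to 0.213 CPM (counts per 1000000 of the library size after trimmed-mean normalization), and such limits cover counting error only. The tissue label was checked against 9 genes of rod photoreceptors, whose summed level was 23900 to 51400 CPM. Control replicate 1 held 77778 counts of Xist, which is made in female cells, and 11 counts of 4 Y-linked genes, whereas the other libraries held 25 to 188 and 6532 to 12858 counts, so sex was not balanced between the groups. Summed markers of cornea and lens were at 2.04 to 9.10 CPM in the controls and 158 to 225 CPM with minocycline. They reached 154 CPM in light replicate 1 and 15.7 CPM in light replicate 2. In light replicate 1 the largest was the lens gene Cryaa at 109 CPM, with the corneal gene Krt12 at 2.51 CPM. With minocycline A and B the largest was Krt12 at 78.3 and 127 CPM, with Cryaa at 10.3 and 1.06 CPM. A summed list of fat and muscle markers reached 53.9 CPM in minocycline library B against 1.85 to 7.36 CPM in the others. Its largest parts there were the muscle genes Myh4 and Ckm at 16.9 and 16.2 CPM. The fat genes Adipoq, Plin1, Cfd and Cidec were at 0 to 0.159 CPM there. The minocycline libraries carry no replicate number in the table and are called A and B.

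Msr1, Cd68, Stab1 and Cd36 were low in control retinas, higher in both light-exposed retinas and near the control level in both retinas with minocycline. Only the change of Msr1 with light passed both the adjusted p and the fold cutoff. Scarb1 was the one member with a high level in control retinas, and it was lower after light. Mrc1, Cd163, Olr1 and Marco were scarce, with 0 to 17 counts in each library. In whole retina, more cells of a type and more RNA per cell cannot be told apart.

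Msr1 (ENSMUSG00000025044.16, chr8:39581685-39642673 on the minus strand, GRCm38) encodes macrophage scavenger receptor 1, a trimeric class A receptor for modified lipoproteins and apoptotic cells. It had 2 and 1 counts in control replicates 1 and 2, 275 and 1109 counts in light replicates 1 and 2, and 8 and 2 counts in minocycline A and B. These counts correspond to 0.142 and 0.0704 CPM, to 16.1 and 52.7 CPM, and to 0.348 and 0.106 CPM. Both light-exposed libraries were thus far above the other 4, while the control and minocycline libraries overlapped and lay close to the detection limit. With light, Msr1 rose by 8.25 ± 1.17 on the log2 scale (SE, adjusted p = 0.0339 by the quasi-likelihood test of edgeR after Benjamini-Hochberg adjustment). Since the controls held only 3 counts in all, the ratio of summed counts per library size is the plainer measure, and it was 342 with a 95% counting interval of 117 to 1660. The ratio was 151 without light replicate 2 and 496 without light replicate 1. When 1 control library was left out, the lone control was assumed to vary like the light pair, and the call was lost, with a log2 fold change of 8.79 (adjusted p = 0.231) without control replicate 1 and 7.85 (adjusted p = 0.308) without control replicate 2. In these fits 4 and 20 genes of the whole table were higher by adjusted p, against 1079 with all 4 libraries. The call was also lost when no filter on low counts was applied (adjusted p = 0.111).

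With minocycline, Msr1 counts relative to light were lower in both libraries, and the light group exceeded the minocycline group by a ratio of 152 (counting interval 82.2 to 317), which was 67.2 without light replicate 2 and 220 without light replicate 1. The log2 difference of -7.13 ± 0.89 (SE) did not pass the adjusted threshold (adjusted p = 0.0698). This value and the one above share the light-exposed libraries and are not independent of each other. Against control, the minocycline group gave a ratio of 2.25 with an interval of 0.58 to 12.7, too wide at this depth to separate these groups.

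Cd68 (ENSMUSG00000018774.13, chr11:69664213-69666153, minus strand) encodes macrosialin, a heavily glycosylated lysosomal membrane protein of phagocytes that is grouped with the class D scavenger receptors. Stab1 (ENSMUSG00000042286.13, chr14:31139013-31168641, minus strand) encodes stabilin 1, a class H receptor that clears modified lipoproteins, extracellular matrix proteins and phosphatidylserine-bearing cells. The bases before the start of both genes are shown because Stab1 was the gene with the profile nearest to that of Cd68, as described further on. Each run holds the 250 bases before the RefSeq start on GRCm38.p6, read 5′ to 3′ on the gene's own minus strand, from chr11:69666171-69666420 for Cd68 and chr14:31168642-31168891 for Stab1. Capitals mark the PU.1 core GAGGAA, bound by a lineage factor of macrophages, and the AP-1 element TGANTCA.
Cd68: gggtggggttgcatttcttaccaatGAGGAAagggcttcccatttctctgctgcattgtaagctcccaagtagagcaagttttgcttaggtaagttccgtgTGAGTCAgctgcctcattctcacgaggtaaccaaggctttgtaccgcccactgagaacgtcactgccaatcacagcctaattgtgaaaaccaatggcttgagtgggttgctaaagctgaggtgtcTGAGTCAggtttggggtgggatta
Stab1: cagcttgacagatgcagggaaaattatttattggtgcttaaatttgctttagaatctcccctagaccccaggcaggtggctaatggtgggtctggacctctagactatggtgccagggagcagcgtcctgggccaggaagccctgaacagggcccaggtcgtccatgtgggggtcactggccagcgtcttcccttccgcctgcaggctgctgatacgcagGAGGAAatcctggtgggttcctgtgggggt
The Cd68 run held GAGGAA 225 to 220 bases before the start and TGAGTCA 149 to 143 and again 24 to 18 bases before it. A further PU.1 core lay on the opposite strand after the start of Cd68 and is not printed. The Stab1 run held GAGGAA 30 to 25 bases before the start and no AP-1 element. Among all 32851 RefSeq promoter windows of 300 bases, which include 50 bases after the start, 28.3% held GAGGAA and 7.81% held TGANTCA on either strand. Promoters of 7 of the 9 members were matched, all but Msr1 and Scarb1, and 5 of these 7 held GAGGAA and 2 held TGANTCA, in Cd68 and Olr1. The members with GAGGAA also included Marco, Mrc1 and Olr1, which had few or no counts, and these letters describe sequence and not binding. No match to the antioxidant response element TGACNNNGC (12.4% of all windows), the lysosomal CLEAR core CACGTG (7.15%) or the interferon response element (3.44%) was found in the 7 windows, and no 2 printed matches overlapped.

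Cd68 had 32 and 44 counts in the controls, 557 and 2279 counts in light replicates 1 and 2, and 64 and 69 counts in minocycline A and B. In CPM these were 2.27 and 3.10, then 32.5 and 108, then 2.79 and 3.66. The light-exposed libraries were again above all others and differed from each other by a factor of 3.33, whereas minocycline and control libraries overlapped. The log2 fold change with light was 4.71 ± 0.91 (SE), and its adjusted p of 0.0846 missed the threshold in edgeR's quasi-likelihood test. The ratio of summed counts was 27.6 (counting interval 22 to 35.2), and it was 12.1 without light replicate 2 and 40.2 without light replicate 1. With minocycline the log2 difference from light was -4.44 ± 0.67 (adjusted p = 0.0698), and that from control was 0.30 ± 0.36 (adjusted p = 0.803). With 1 library left out, the difference from light was -3.34 without light replicate 2 (adjusted p = 0.00961), -5.07 without light replicate 1 (adjusted p = 0.000277), -4.23 without minocycline A (adjusted p = 0.312) and -4.65 without minocycline B (adjusted p = 0.390).

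Stab1 had 44 and 61 counts in the controls, 518 and 1874 counts after light and 94 and 66 counts with minocycline. Its levels were 3.13 and 4.30 CPM, 30.3 and 89.0 CPM, and 4.09 and 3.50 CPM, so that light-exposed libraries stood apart and minocycline and control libraries overlapped, as for Cd68. The log2 fold change was 4.01 ± 0.76 with light (SE, adjusted p = 0.0706) and -3.95 ± 0.58 with minocycline against light (adjusted p = 0.0698), so neither passed. With 1 library left out, the difference from light was -2.99 without light replicate 2 (adjusted p = 0.0129), -4.54 without light replicate 1 (adjusted p = 0.000277), -4.05 without minocycline A (adjusted p = 0.295) and -3.86 without minocycline B (adjusted p = 0.396). The ratio of summed counts with light was 16.9 (counting interval 13.9 to 20.7), and it was 8.15 without light replicate 2 and 24.0 without light replicate 1. The log2 difference was 0.08 ± 0.34 with minocycline against control (adjusted p = 0.949). Exons of Stab1 share 112 bases with those of Nt5dc2 on the opposite strand, and the use of the strand in counting is not stated. Nt5dc2 itself differed by 0.77 on the log2 scale with light (adjusted p = 0.0847). With minocycline it differed by 0.31 from light (adjusted p = 0.481) and by 1.10 from control (adjusted p = 0.143).

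Cd36 (ENSMUSG00000002944.15, chr5:17781690-17888801, minus strand) encodes a class B receptor for fatty acids, oxidized lipoproteins and photoreceptor outer segments that is made by macrophages, endothelium and pigment epithelium. It had 37 and 15 counts in the controls, 99 and 769 counts after light and 61 and 26 counts with minocycline. The levels of 2.63 and 1.06 CPM in the controls, 5.78 and 36.5 CPM after light, and 2.66 and 1.38 CPM with minocycline did not overlap between light and the other groups. However, the light-exposed libraries differed by a factor of 6.31, more than those of Msr1, Cd68 or Stab1. The log2 fold change with light was 3.53 ± 1.32 (SE, adjusted p = 0.227). The ratio of summed counts was 12.4 (9.34 to 16.7) but 3.14 (2.23 to 4.49) without light replicate 2 and 19.8 without light replicate 1, so that its size rested on 1 library. With minocycline, Cd36 differed from light by -3.36 ± 0.95 (adjusted p = 0.142), by -1.51 without light replicate 2 (adjusted p = 0.475), by -4.16 without light replicate 1 (adjusted p = 0.00418), by -3.90 without minocycline A (adjusted p = 0.444) and by -2.99 without minocycline B (adjusted p = 0.581). It differed from control by 0.19 ± 0.52 (adjusted p = 0.918).

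Scarb1 (ENSMUSG00000037936.15, chr5:125277087-125341094, minus strand) encodes the class B receptor SR-B1, which takes up cholesteryl esters from high-density lipoprotein and, in the eye, supports carotenoid and lipid uptake. It had 4119 and 3509 counts in the controls, 3086 and 3427 counts after light and 5368 and 5221 counts with minocycline. The levels were 293 and 247 CPM, 180 and 163 CPM, and 234 and 277 CPM, with both light-exposed libraries below all others. The log2 fold change with light was -0.65 ± 0.16 (SE). It passed the adjusted p (0.0278, edgeR's quasi-likelihood test) but not the fold cutoff, and with total library sizes in place of trimmed-mean scaling it was -0.42 with adjusted p = 0.094. Leaving out any 1 of the 4 libraries gave -0.78 to -0.53 with adjusted p of 0.0536 to 0.291. With minocycline, Scarb1 differed from light by 0.59 ± 0.16 (adjusted p = 0.106) and from control by -0.04 ± 0.18 (adjusted p = 0.952).

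The summed level of the 9 rod genes was 51400 and 43100 CPM in the controls, 33100 and 23900 CPM after light, and 47900 and 49400 CPM with minocycline, with both light-exposed libraries below all others, as for Scarb1. Expressed as a percentage of that sum, a ratio chosen after the values were seen, Scarb1 was 0.569 and 0.573 in the controls, 0.544 and 0.681 after light, and 0.488 and 0.560 with minocycline. On this scale the light-exposed libraries overlapped both other groups. The part of rod RNA in the difference of Scarb1 was not tested.

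Mrc1 (chr2:14229392-14332057, plus strand) encodes the mannose receptor, a marker of macrophages at vessels and tissue borders. It had 6 and 1 counts in the controls, 11 and 17 after light and 3 and 12 with minocycline, or 0.427 and 0.0704 CPM, 0.643 and 0.807 CPM, and 0.131 and 0.636 CPM. Light-exposed libraries were above both groups, but the ratio to control was 2.96 with an interval of 1.26 to 8.03 and the log2 fold change of 1.53 ± 0.71 did not pass (adjusted p = 0.178). It was 3.24 without control replicate 1 and 0.76 without control replicate 2. With minocycline the difference from light was -0.95 ± 0.71 (adjusted p = 0.499), and it was -0.16 without minocycline A and -2.42 without minocycline B, so that 1 library set its size in both comparisons.

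Cd163 (chr6:124304656-124330527, plus strand), the haemoglobin-haptoglobin receptor of the same macrophages, had 1 and 0 counts in the controls, 3 and 0 after light, and 4 and 6 with minocycline. It was the only member whose minocycline libraries both exceeded the controls, with a ratio of 6.75 whose interval of 0.961 to 293 includes no difference. Olr1 (chr6:129485244-129507165, minus strand), the oxidized lipoprotein receptor LOX-1, had 0 and 1 counts in the controls, 1 and 11 after light and 0 and 0 with minocycline. Its ratio of 8.88 with light (1.31 to 380) came almost wholly from light replicate 2 and was 1.65 (0.021 to 130) without it. Marco (chr1:120474538-120505024, minus strand), a class A receptor of macrophages that filter blood and air, had 0 counts in every library and so lay under the limit of 0.131 to 0.213 CPM. All 3 were removed by the filter on low counts, so none has a test.

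**Figure D1:**
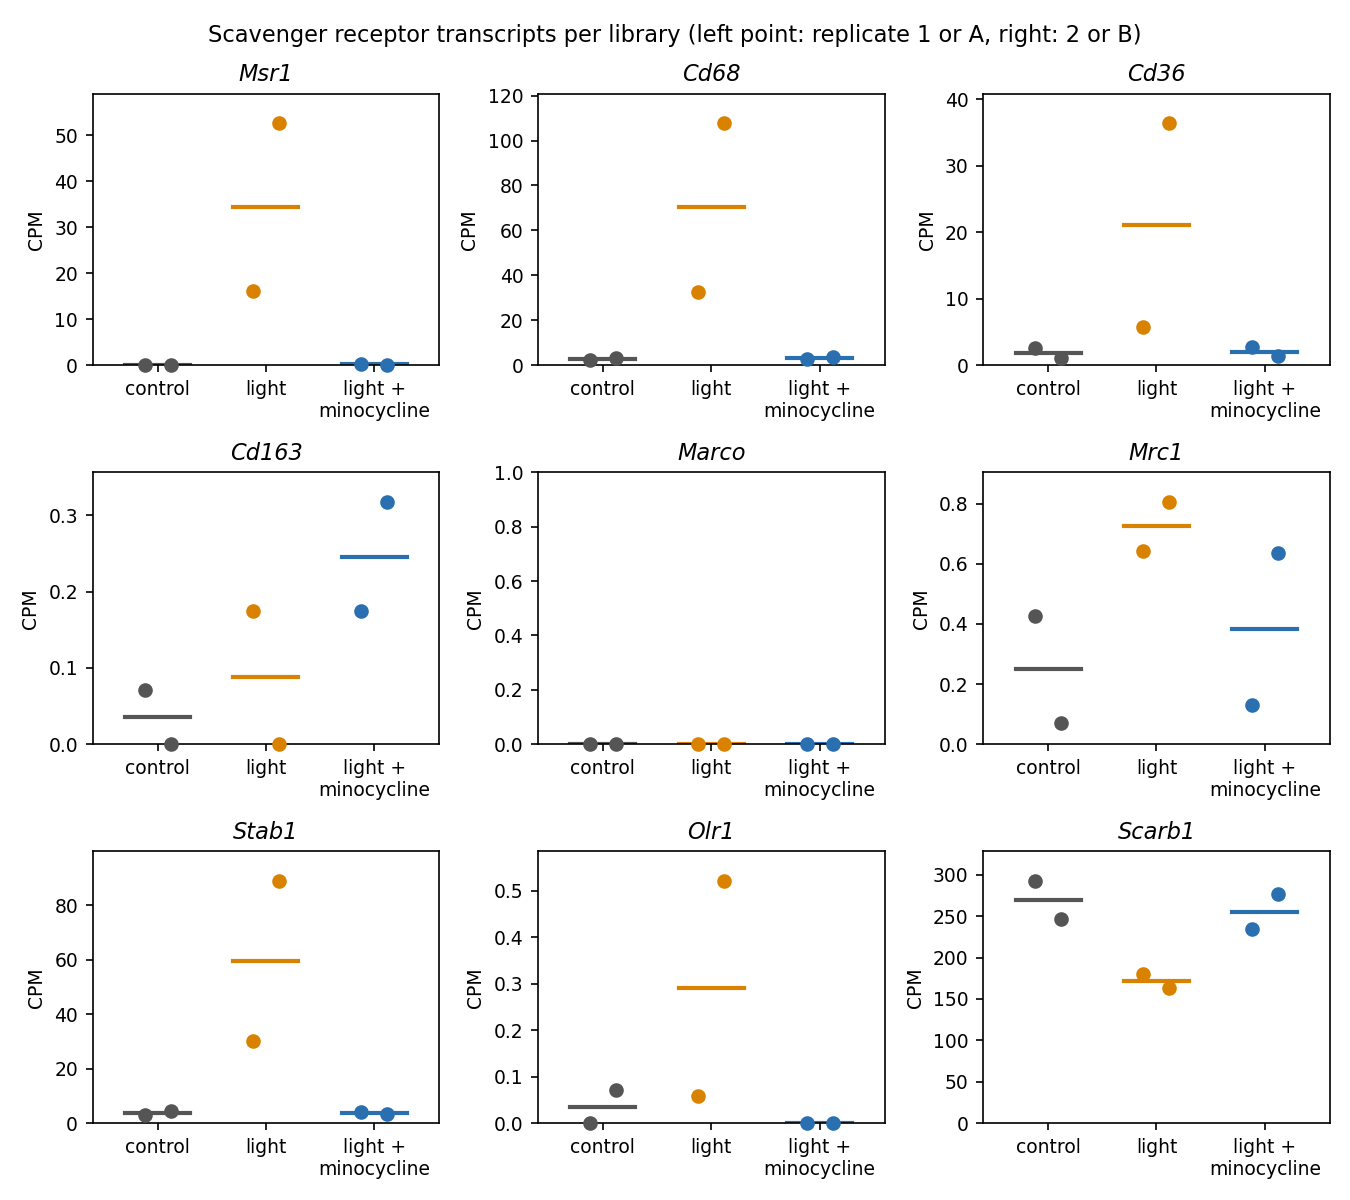
Levels of the 9 scavenger receptor transcripts in CPM (vertical axis, linear and with its own range for each gene) in control, light and light plus minocycline retinas. Points are libraries and bars are means of 2, and for Msr1, Cd68, Stab1 and Cd36 both light-exposed points lie above all others, with light replicate 2 above light replicate 1, whereas for Scarb1 they lie below.

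In all, 6 of the 9 members could be tested for light against control, and 1 was called higher (Msr1) and 0 lower, where a call needs both an adjusted p under 0.05 and a change of 2 or more on the log2 scale. Of all 14349 genes tested, 2.89% were called higher and 0.0279% lower. By adjusted p alone 1 member was higher and 1, Scarb1, was lower, against 7.52% and 3.80% of all genes, and 4 of the 6 had an unadjusted p under 0.05, as had 28.9% of all genes. The light-exposed libraries were both above the controls for 5 of the 6 tested members and both below for 1, and this was so for 30.6% and 30.3% of all genes. Msr1 and Mrc1 passed the filter on low counts only through the light group and were removed by it for minocycline against control, so counts over the tested members are not free of that choice. The number of members called higher differed between fits. It was 3 with all 6 libraries in one fit (Msr1, Cd68 and Stab1), where 2.90% of all genes were called higher, and 4 with DESeq2 without shrinkage (Cd36 as well), where 2.54% were.

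For minocycline against light, 6 members were tested and edgeR's quasi-likelihood test called 0 in either direction, although 5 had an unadjusted p under 0.05, as had 21.1% of all genes. Of all 14750 genes, 0.0136% were called higher and 0.0339% lower. By adjusted p alone 0.0136% were higher and 0.0407% lower, so few genes of any kind passed in this comparison. DESeq2 without shrinkage called 3 members lower (Msr1, Cd68 and Stab1) and 1.62% of all genes, and the fit of all 6 libraries called the same 3 members and 1.48% of all genes. Minocycline libraries were both below light for 5 of the 6 members and both above for Scarb1, against 28.7% and 26.1% of all genes.

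For minocycline against control, 4 members were tested (Cd68, Cd36, Stab1 and Scarb1). None was called by edgeR's quasi-likelihood test or by DESeq2, and 0 had an unadjusted p under 0.05, against 7.01% of all genes. Of all 14181 genes, 0.134% were called higher and 0% lower, with 0.162% and 0% by adjusted p alone. The groups overlapped for all 4, whereas minocycline libraries were both above control for 15.9% of genes and both below for 24.0%. The median difference was 0.13 over the members and 0.02 over all genes.

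**Figure D2:**
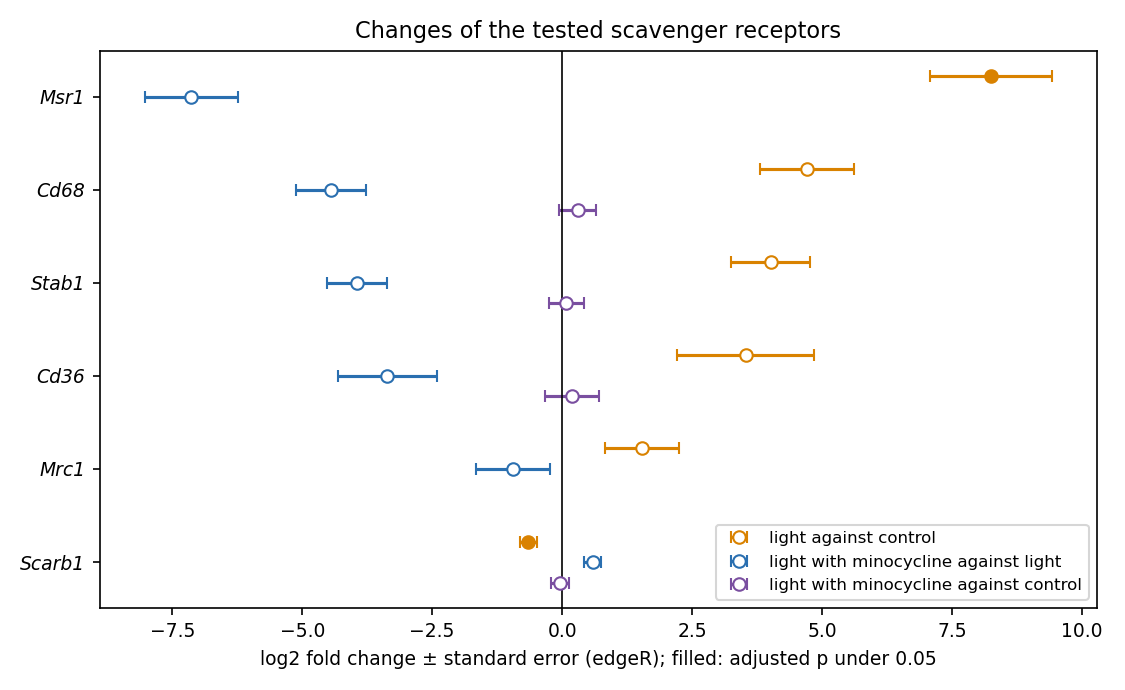
Log2 fold changes (horizontal axis) of the 6 tested scavenger receptors with standard errors in 3 comparisons, where filled points have an adjusted p under 0.05. Light against control lies from 8.25 for Msr1 to -0.65 for Scarb1, minocycline against light has the opposite sign for each of the 6, sharing the light-exposed libraries, and minocycline against control lies between -0.04 and 0.30 for the 4 genes it could test.

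Per length of the longest annotated transcript, Scarb1 had the highest level among the members in control retinas, at 87.3 ± 10.4 CPM per kb (SD, n = 2). It was followed by Cd68 at 2.18 ± 0.474, Cd36 at 0.542 ± 0.327 and Stab1 at 0.464 ± 0.103 CPM per kb, of which the last pair did not differ beyond their spread. After light, Cd68 reached 57.2 ± 43.5 and Scarb1 55.4 ± 4.01 CPM per kb, so that the order of these neighbours was not resolved. Msr1 at 9.45 ± 7.12, Stab1 at 7.45 ± 5.19 and Cd36 at 6.22 ± 6.39 CPM per kb overlapped each other. In retinas with minocycline Scarb1 was at 82.5 ± 9.82 and Cd68 at 2.62 ± 0.50 CPM per kb, again followed by Cd36 at 0.593 ± 0.266 and Stab1 at 0.474 ± 0.0526, which did not differ beyond their spread. In control and minocycline retinas Msr1, at 0.0292 ± 0.014 and 0.0625 ± 0.0471 CPM per kb, was not separated from Mrc1 at 0.0462 ± 0.0469 and 0.0713 ± 0.0665.

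The light-exposed replicates differed alike in several members. Light replicate 2 exceeded replicate 1 by a factor of 3.28 for Msr1, 3.33 for Cd68 and 2.94 for Stab1. The summed level of 9 microglial markers, among them Cx3cr1, Csf1r and P2ry12, was 23.2 and 22.3 CPM in the controls, 98.7 and 267 CPM after light, and 38.7 and 19.1 CPM with minocycline. Of these 9 markers 6 passed the adjusted p upward with light, as did 7.52% of all genes, and 0 fell. Of the 6, Fcrls passed the filter only through the light group. Their passing was lost when either control library was left out, where few of all genes passed. The sum of the 9 markers was highest in the same libraries as the receptors. The part of microglial RNA in their levels was not tested.

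Relative to that microglial sum, Msr1 amounted to 0.613% and 0.315% in the controls, 16.3% and 19.7% after light, and 0.901% and 0.556% with minocycline. The light-exposed replicates were closer to each other on this scale than in CPM and still far above the other libraries. Cd68 amounted to 9.82% and 13.9% in the controls, 33.0% and 40.5% after light, and 7.21% and 19.2% with minocycline. Stab1 amounted to 13.5% and 19.2%, 30.7% and 33.3%, and 10.6% and 18.3%, so that both genes were higher after light on this scale, by less than Msr1. Cd36 amounted to 11.3% and 4.73%, 5.86% and 13.7%, and 6.87% and 7.22%, and here the groups overlapped. These ratios are descriptions, and no test was run on them.

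**Figure D3:**
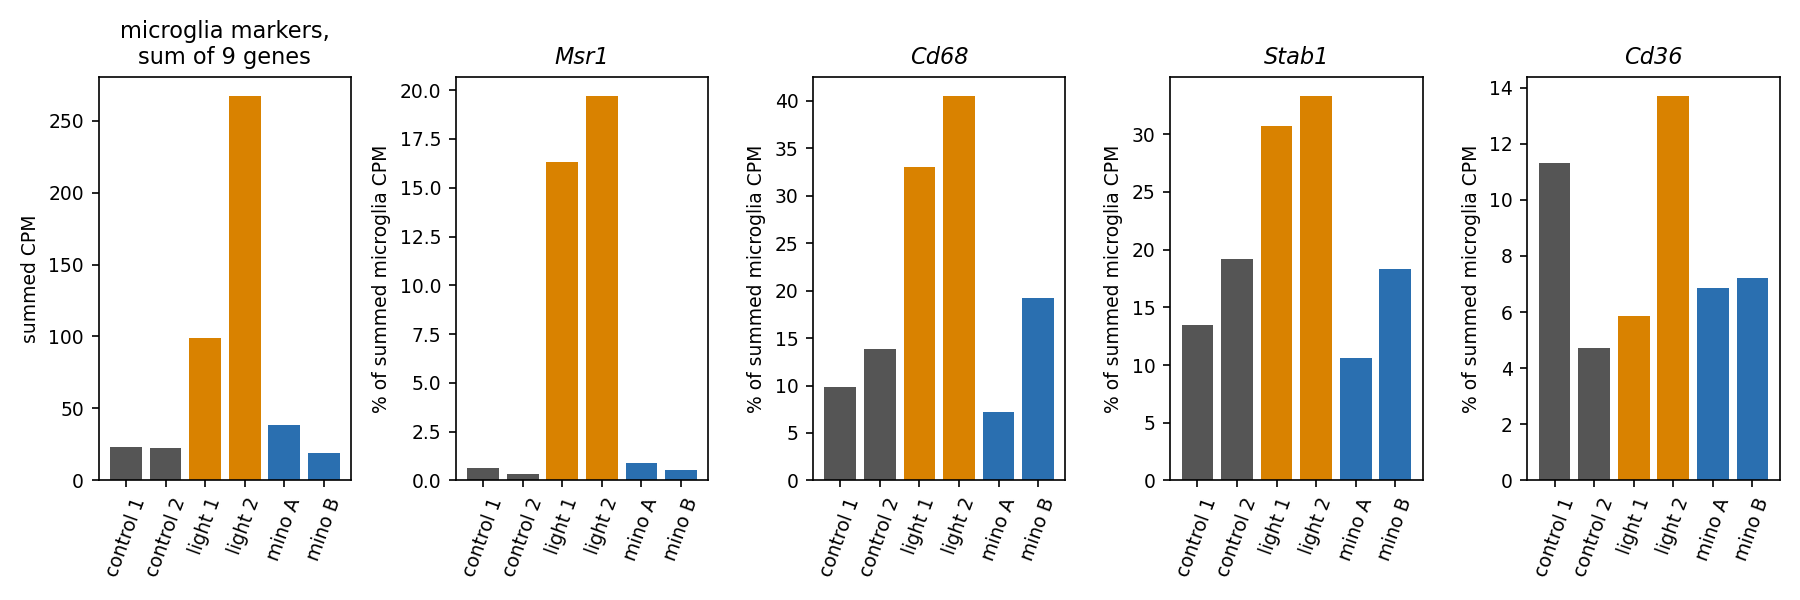
Summed CPM of 9 microglial markers (left panel) and Msr1, Cd68, Stab1 and Cd36 as a percentage of that sum (other panels, vertical axes from 0) in each of the 6 libraries, with control in grey, light in orange and minocycline in blue. Msr1 stands at 16.3% and 19.7% in the light-exposed libraries and at 0.315% to 0.901% elsewhere, while the Cd36 bars of the 3 groups overlap.

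Other macrophage types were also examined. Among 10 markers of border and vessel macrophages, 4 could be tested and 2 rose with light, Folr2, a folate receptor, by 2.88 on the log2 scale (adjusted p = 0.0147) and Cbr2, a carbonyl reductase, by 3.05 (adjusted p = 0.0251), where 7.52% of all genes were higher by adjusted p. Both had controls under the cutoff of the filter and passed it only through the light group. Fewer passed without either control library or without light replicate 2, as was so for all genes. Cbr2 was at 0.701 and 1.14 CPM after light but at 1.78 and 2.33 CPM with minocycline, with a log2 difference from control of 4.23 (adjusted p = 0.0448, a threshold passed upward by 0.162% of all genes). In that comparison Cbr2 passed the filter only through the minocycline group. The call was lost with all 6 libraries in one fit and without either control library. Lyve1, a hyaluronan receptor, was at 4.77 to 9.49 CPM in all libraries, and the summed list lay at 6.34 to 7.18 CPM in the controls, 12.6 to 26.7 CPM after light and 8.58 to 12.3 CPM with minocycline. In light replicate 2 the largest part of that sum was Ms4a7, at 13.7 CPM, which was at 2.22 CPM in light replicate 1 and at 0 in the controls and did not pass (adjusted p = 0.177). Markers of monocytes and neutrophils summed to 0.423 to 2.37 CPM in every library, with Ccr2, a chemokine receptor of monocytes, at 0 in the controls and at 0.584 and 0.570 CPM after light. Endothelial markers summed to 188 to 218 CPM in the controls, 285 to 368 CPM after light and 218 to 290 CPM with minocycline. Of these 10 markers 1 rose, the growth factor receptor gene Kdr, where 7.52% of all genes were higher. It rose by 0.87 on the log2 scale (adjusted p = 0.0166). It no longer passed without either control library or light replicate 2, where fewer of all genes passed as well. Kdr held most of the sum at 112 to 253 CPM, while Pecam1, the adhesion molecule of endothelium, differed by 0.27 (adjusted p = 0.525). Markers of pigment epithelium summed to 157 to 585 CPM with overlap of all groups. Among them the pigment genes Pmel, at 72.1 and 340 CPM, and Tyr, at 10.3 and 48.6 CPM, were far above their other libraries with minocycline, and were singled out after their values were seen, whereas Rpe65, the visual cycle isomerase, was at 18.7 and 31.8 CPM with minocycline and 21.3 and 29.8 CPM after light. Of 10 markers of Mueller glia, the supporting glia of the retina, 4 rose with light by adjusted p, against 7.52% of all genes. Among them the intermediate filament gene Gfap rose by 2.02 on the log2 scale (adjusted p = 0.0154). Their passing was lost without either control library, where few of all genes passed. More of the markers passed without light replicate 1, as was so for all genes. The 10 markers summed to 3080 and 2150 CPM in the controls, 3620 and 4120 CPM after light, and 3920 and 2980 CPM with minocycline. The part of these cells in the levels of the receptors and of the other genes named was not tested.

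Profiles were compared by the distance of log2 CPM, centred on each gene's mean, over the 6 libraries. Only genes tested in every comparison could be neighbours. Genes filtered out of minocycline against control, such as Syk and Sfpi1, could therefore not appear. Msr1 was compared although it was itself filtered out there. Nearest to Msr1 among 13977 genes were Lyz2, encoding lysozyme (distance 1.47), Mpeg1, encoding the pore-forming perforin-2 of macrophages (1.73), Spp1, encoding osteopontin (1.87), Clec7a, encoding the beta-glucan receptor dectin-1 (1.89), and Emr1, encoding the macrophage surface protein F4/80 (2.44). Lyz2 stood at 1.99 and 4.23 CPM in the controls, 147 and 553 CPM after light and 9.31 and 3.76 CPM with minocycline. Nearest to Cd68 among 13976 genes were Stab1 (0.79), Apobec1, a cytidine deaminase that edits RNA (0.85), Fam46c (0.88), Hpgds, a prostaglandin D synthase (0.92), and Tyrobp, the adaptor of the receptor Trem2 (0.93). The distances of Msr1 were larger than those of Cd68, and its own counts outside the light group were between 1 and 8. The 6 points of each profile share these libraries and their depth, so the distances are a description.

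Among 17 further scavenger receptors 16 could be tested, and 5 rose with light by adjusted p while 0 fell, none of them past the fold cutoff, where 7.52% of all genes were higher and 3.80% lower. These rises were lost without either control library, where few of all genes passed. More genes of the list passed without light replicate 1, as was so for all genes. Cxcl16, a membrane-bound chemokine that also binds oxidized lipoproteins, stood at 9.67 and 8.52 CPM in the controls, 21.6 and 38.0 CPM after light and 14.3 and 9.22 CPM with minocycline, and rose by 1.72 on the log2 scale (adjusted p = 0.0122). Cd44, the hyaluronan receptor, rose by 1.50 (adjusted p = 0.0108), and Scara3, a class A receptor induced by oxidative stress, by 1.23 (adjusted p = 0.00899). Megf10, an engulfment receptor of glia, rose by 0.77 (adjusted p = 0.0221) and Scarb2, a lysosomal class B relative of Scarb1 also called LIMP-2, by 0.70 (adjusted p = 0.0275), the latter opposite in sign to Scarb1. The largest fold changes of the list, singled out after their values were seen, belonged to Clec7a at 5.81 (adjusted p = 0.0918) and Colec12, a class A collectin receptor, at 4.24 (adjusted p = 0.0657), and neither passed. The median over the 16 genes was 0.96, against 0.00 for all genes.

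With minocycline against light all 16 differences lay below 0, with a median of -0.80, and edgeR's quasi-likelihood test passed 0 by adjusted p. An unadjusted p under 0.05 was found for 11, against 21.1% of all genes in either direction, and DESeq2 without shrinkage passed 6, against 6.61%. Colec12 stood at 16.4 and 54.5 CPM after light and at 5.83 and 11.3 CPM with minocycline, still above the controls at 2.13 and 1.62 CPM, whereas Clec7a at 1.39 and 0.848 CPM overlapped its controls at 1.07 and 0.915 CPM.

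**Figure D4:**
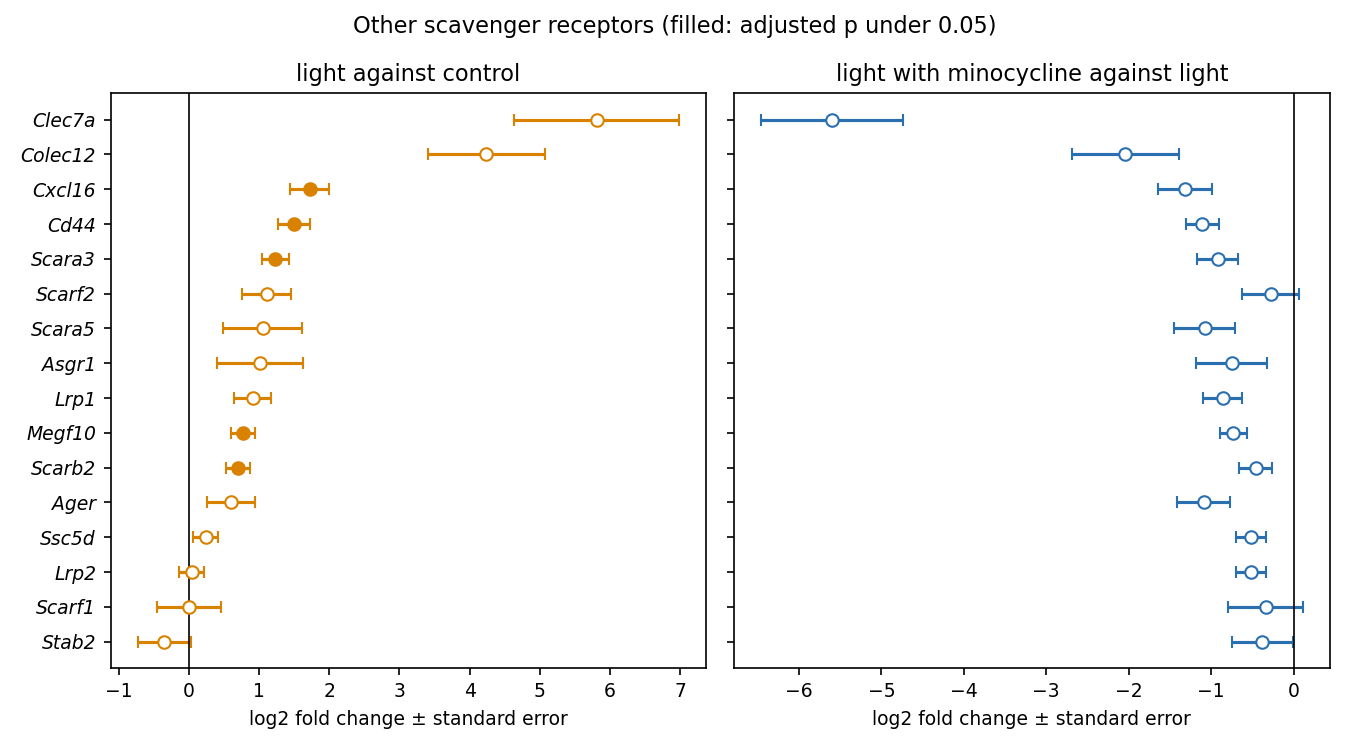
Log2 fold changes with standard errors (horizontal axes) of 16 other scavenger receptors for light against control (left) and for light with minocycline against light (right), where filled points have an adjusted p under 0.05. Clec7a and Colec12 lie farthest from 0 on the left at 5.81 and 4.24 with wide errors, and all 16 genes lie below 0 on the right.

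Of the ligands and ligand carriers, 7 of 12 could be tested and 4 rose with light by adjusted p, against 7.52% of all genes, with a median of 1.57 over the 7. The passing of these 4 was lost without either control library, where few of all genes passed. Lgals3, encoding galectin-3, a bridging lectin for engulfment, rose by 3.41 on the log2 scale (adjusted p = 0.0199), from 4.98 and 3.87 CPM to 28.5 and 65.0 CPM. Apoe, encoding the lipoprotein component apolipoprotein E, rose by 2.48 (adjusted p = 0.0375), from 208 and 172 CPM to 609 and 1500 CPM. Anxa5, encoding the phosphatidylserine-binding annexin A5, rose by 1.57 (adjusted p = 0.018), and Sparc, encoding the matrix protein cleared through stabilin 1, by 0.83 (adjusted p = 0.0243). With minocycline 6 of the 7 were lower than with light, and edgeR passed 0 by adjusted p, with 5 at an unadjusted p under 0.05 in either direction (21.1% of all genes) and 1 by DESeq2 (6.61%).

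Of the signalling partners and regulators of these receptors, 15 of 17 could be tested and 7 rose with light, all past the fold cutoff, while 0 fell, against 2.89% of all genes called higher. All 7 calls were lost without either control library, where few of all genes passed. Of the 7, 4 (Syk, Sfpi1, Vav1 and Tlr4) had both controls under the cutoff of the filter on low counts. These 4 passed it only through the light group. The kinase genes Syk and Lyn rose by 4.68 (adjusted p = 0.0141) and 3.71 (adjusted p = 0.0185) on the log2 scale, and Vav1, an exchange factor of the same route, by 4.33 (adjusted p = 0.0247). The transcription factor genes Cebpa and Sfpi1, the latter encoding PU.1, rose by 4.28 (adjusted p = 0.00962) and 3.73 (adjusted p = 0.0173). Sfpi1 stood at 0.427 and 0.423 CPM in the controls, 2.57 and 8.78 CPM after light, and 0.609 and 0.583 CPM with minocycline. The log2 fold changes of these 5 genes lay between the values of Cd36 and Cd68, and they passed where those receptors did not. With minocycline against light edgeR passed 0 of the 15, with 9 at an unadjusted p under 0.05 (21.1% of all genes) and 6 by DESeq2 (6.61%) in either direction.

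Of 15 genes that handle lipid and haem after uptake, all were tested, and 5 rose and 1 fell with light by adjusted p, against 7.52% and 3.80% of all genes. Without either control library these rises were lost, where few of all genes passed. More genes of the list rose without light replicate 1, as was so for all genes. Fabp5, a fatty acid carrier, rose by 2.96 on the log2 scale (adjusted p = 0.0375), the iron exporter Slc40a1 by 1.53 (adjusted p = 0.028), the cholesterol exporter Abca1 by 1.40 (adjusted p = 0.00806), the lipase Lpl by 1.32 (adjusted p = 0.0249) and the haem oxygenase Hmox1 by 0.98 (adjusted p = 0.0489). Abcg1, another cholesterol exporter and the one gene of the list that fell, dropped by 0.53 (adjusted p = 0.0465), and like Scarb1 it was among the more abundant genes in control retinas, at 246 and 220 CPM. Abca1 stood at 200 and 289 CPM after light, against 86.3 and 99.9 CPM in the controls and 79.1 and 78.3 CPM with minocycline, while Lpl was at 16.5 and 29.0 CPM with minocycline and so not lower than the 13.1 and 21.8 CPM after light. With minocycline against light edgeR passed 0 of the 15, with 9 at an unadjusted p under 0.05 (21.1% of all genes) and 8 by DESeq2 (6.61%).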

How the data were processed

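RNA of whole retinas was sequenced in 6 libraries, 2 per group. From stranded mRNA libraries, the authors mapped single-end reads to mm10 (GRCm38) using STAR and RNA Express. The deposited counts per gene are whole numbers without scaling although the data statement calls them normalized. The annotation, the versions of STAR and RNA Express and the use of the strand are not given in the sources used here. No value column was left out (0 unused).

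Each pair of groups was tested in edgeR 4.0.16 under R 4.3.3 with filterByExpr, TMM, a robust quasi-likelihood fit and Benjamini-Hochberg adjustment across every gene kept. Calls required adjusted p below 0.05 and a size of 2 or more in log2 fold change. Log2 CPM used a prior count of 2. Ratios of summed counts carry exact 95% intervals of counting error only. Alternatives were other scalings, filters and fits, DESeq2 1.42.0, the replicate block and leaving out each library. Positions came from GENCODE and promoters from RefSeq.

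The members and the other gene lists (157 of 158 symbols found) were chosen with earlier results of these data known. Of the cell type markers, 2 are not reported here and were left out of the sums. Within each list, up to 5 genes past the adjusted p with the largest change were named.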

Additional observations from a re-analysis of the deposited data

How the results depend on the processing

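The number of scavenger receptors called higher with light, 1 as reported, was 3 with total library sizes, 0 without a filter, 0 with at least 10 counts in every library (where Msr1 could not be fitted), 4 with DESeq2 without shrinkage, 4 without robust estimation and 3 with all 6 libraries in one fit. Leaving out 1 library gave 0 to 4, with 0 without either control library, 4 without light replicate 1 and 3 without light replicate 2. Such fits leave 1 library in a group, which is assumed to vary like the pair of the other group, so they differ in which pair sets the spread. For minocycline against light, 0 as reported became 3 with DESeq2 without shrinkage, 1 without robust estimation and 3 with all 6 libraries, and 0 to 4 when 1 library was left out (4 without light replicate 1, 3 without light replicate 2). The cause was not tested. No member was called for minocycline against control under any alternative. There the sign of the log2 difference changed when 1 library was left out, within -0.38 to 0.97 for Cd36, -0.14 to 0.33 for Stab1 and -0.20 to 0.08 for Scarb1. Shrunken fold changes of DESeq2 gave the smallest sizes, with 4.17 for Msr1, 1.48 for Cd68, 1.52 for Stab1 and 0.62 for Cd36 with light, and -1.0, -1.25, -1.39 and -0.55 for these genes with minocycline against light.

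With the replicate number as a block, light against control called 3 members higher (Msr1, Cd68 and Stab1). It is not stated whether these numbers pair the samples. The deviations of replicates in control and light correlated at -0.0107 over 14713 genes, which cannot settle whether they were paired. No paired analysis was possible because the columns of the minocycline group share one header, as far as the comparisons with that group are concerned.

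Groups of 2 libraries limit every comparison, and the light-exposed libraries differed by a factor of 2.94 to 6.31 in Msr1, Cd68, Stab1 and Cd36. Msr1, Cd163 and Olr1 had between 0 and 8 counts in the control and minocycline libraries, so their ratios have wide counting intervals. Groups of 2 also allow no test for an outlying library.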
